A study of Mus musculus with 2 samples.

Results

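Melanocytes of the hair follicle receive signals from the surrounding epithelium and dermal papilla through receptors at their surface, and 10 such receptor genes were followed here in early-anagen melanocyte stem cells (McSCs) and in mature melanocytes of the hair bulb. The genes were taken as a named list and not by a rule on their values, though with earlier results of these data known. The list makes up 10 of the 32285 genes in the matrices, and each of the 10 was present in both. They were *Kit*, *Ednrb*, *Erbb3*, *Met*, *Fgfr1*, *Igf1r*, *Axl*, *Mertk*, *Tyro3* and *Ngfr*. Their transcripts were counted in single cells as unique molecular identifiers (UMIs), each of which marks 1 captured transcript end.

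Both groups of mice carried the transgenes Dct-rtTA; tetO-H2B-GFP, in which the promoter of the melanocyte enzyme gene *Dct* drives a doxycycline-dependent nuclear GFP, and both received a doxycycline diet before GFP-positive cells were sorted from back skin. The early-anagen cells came from mice of 8 weeks, taken 4 days after depilation, which starts a new hair cycle, and were released with trypsin. The bulb melanocytes came from mice of 5 weeks in anagen VI, and their bulbs were dissected out and digested with collagenase and dispase. Each group was 1 library with the cells of 4 mice combined, made with version 3 of the droplet kit for early anagen and version 2 for the bulb. Age, hair cycle stage, dissociation, kit and depth therefore changed together and cannot be told apart, and no test between the groups was possible. The sort rested on a *Dct*-driven reporter and was meant to collect cells that use this promoter.

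Cells were kept with at least 1 *Dct* UMI, fewer than 3 UMIs of the keratins *Krt10* and *Krt14* together, less than 5% of UMIs from mitochondrial genes, and more than 10000 UMIs in early anagen or 5000 in the bulb. This left 2785 of 11010 barcodes and 3734 of 4327 barcodes, with a median of 24528 and 14287 UMIs per cell. Among barcodes within the limits on depth and mitochondrial genes, 26 and 13 held no *Dct* UMI. No barcode was shared between the cells of both libraries. All 8 melanocyte markers were found in both, and they summed to 24639 CPM (UMIs scaled to a total of 1000000) in early anagen and 67431 CPM in the bulb. *Kit* is 1 of these 8, and so is *Dct*, which every kept cell had to hold. The keratinocyte list likewise holds *Krt10* and *Krt14*, which the selection limited. The sums of both lists were thus partly set by the selection. The keratinocyte list summed to 34.1 and 60.7 CPM, with 8 and 5 of its 8 genes seen and *Krt1*, *Krt15* and *Krt79* at 0 in the bulb. The Schwann cell list summed to 246 and 467 CPM, with 7 of its 8 genes seen and 5 at 1 CPM or more in both libraries. Of its genes, *Mbp* had 2 and 1 UMIs and *Sox2* had 0 in both libraries. Which cells gave the Schwann list UMIs was not tested. Fibroblast, endothelial and Merkel cell lists each summed to at most 1.32 CPM and the immune list to 17.6 and 7.50 CPM.

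KIT is a receptor tyrosine kinase for KIT ligand (stem cell factor) and is needed for melanoblast survival and migration and for pigment cells in anagen. EDNRB is a G-protein-coupled receptor for endothelins, which epithelial cells supply to melanocytes. ERBB3 binds neuregulins and signals with ERBB2, MET binds hepatocyte growth factor, FGFR1 binds fibroblast growth factors and IGF1R binds insulin-like growth factors. AXL, MERTK and TYRO3 form the TAM family, whose ligands are GAS6 and protein S, and NGFR is the p75 receptor for neurotrophins, found on neural crest cells and glia.

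Of the 10 receptors, *Ednrb* alone had the higher level in the bulb, and *Kit* was among those with the lower level there. In early anagen *Kit* had 486 CPM (exact Poisson 95% interval 481 to 491, 36804 UMIs), and in the bulb it had 108 CPM (105 to 111, 6023 UMIs). This was 4.51-fold lower in the bulb, a log2 ratio of -2.17 with an interval of -2.21 to -2.13. *Ednrb* had 693 CPM in early anagen (687 to 698) and 1212 CPM in the bulb (1203 to 1221), which was 1.75-fold higher, with a log2 ratio of 0.81 (0.79 to 0.82). All intervals for levels and ratios cover counting error only and hold for these libraries, since cells of 1 library are not replicates.

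The other growth factor receptors were lower in the bulb too. *Met* had 106 CPM in early anagen and 45.6 CPM in the bulb, 2.32-fold lower (log2 ratio -1.21, -1.28 to -1.15). *Erbb3* had 66.5 and 6.10 CPM, 10.9-fold lower (-3.45, -3.61 to -3.29). *Igf1r* had 40.0 and 4.12 CPM, 9.72-fold lower (-3.28, -3.48 to -3.09). *Fgfr1* had 16.3 and 1.06 CPM, from 1237 and 59 UMIs (-3.95, -4.35 to -3.57).

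Receptors of the TAM family and *Ngfr* were scarce in both libraries. *Tyro3* had 3.91 CPM in early anagen and 0.519 in the bulb (296 and 29 UMIs), and *Axl* had 1.35 and 0.143 CPM (102 and 8 UMIs). *Mertk* had only 15 UMIs in all selected early-anagen cells and 3 in all selected bulb cells. *Ngfr* had 26 UMIs in early anagen and none in the bulb, where 0 UMIs set against the floor of 3 counts for the library give a level at least 6.40-fold lower. For these 4 genes the ratio rests on few molecules, and the cells that held them in the bulb are described further on.

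**Figure D1:**
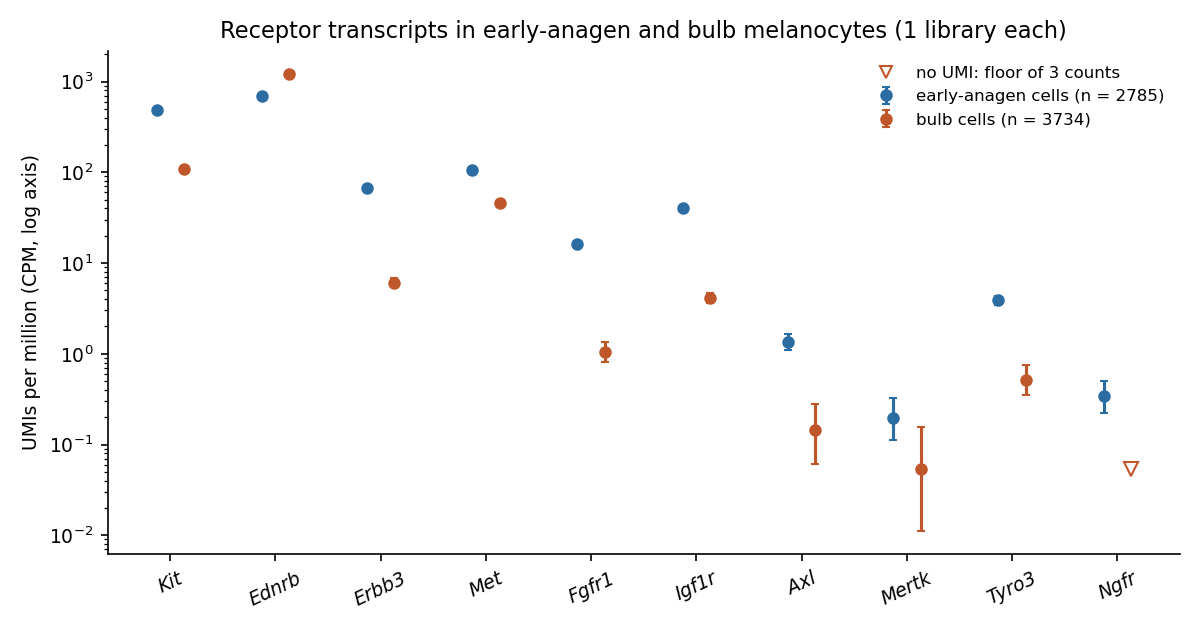
Level of each receptor (CPM on a log axis) in the cells of each library, with exact Poisson 95% intervals, and an open triangle at the floor of 3 counts where no UMI was found. Of the 10 genes, *Ednrb* is the one with the higher level in the bulb, at 1212 against 693 CPM, and *Kit* is lower there at 108 against 486 CPM.

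The 15502 genes with a UMI in both libraries had a median log2 ratio of -0.42, and the 7298 genes with a mean of at least 10 CPM had one of -0.11. Relative to the first median, *Kit* was at -1.75, *Met* at -0.79, *Erbb3* at -3.02, *Igf1r* at -2.86 and *Ednrb* at 1.23. The median over the receptors was -2.91, or -2.80 with *Ngfr* at its bound. With this minimum, 5 receptors could be counted, and 4 of them were lower past 2-fold (*Kit*, *Erbb3*, *Met* and *Igf1r*) and 0 higher. Among the 7298 genes, 25.8% were lower past 2-fold and 16.4% higher. Counted relative to the median of -0.42 the shares were 17.6% and 27.3%, and *Ednrb* then lay past 2-fold and *Met* did not. Counted relative to the median of -0.11, a choice added after seeing the data, they were 23.3% and 18.9%, with *Ednrb* at 0.92, under 2-fold, and *Met* at -1.10, past it. *Fgfr1* had a mean of 8.70 CPM and stayed below the minimum.

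The shares of cells with a UMI pointed the same way when each cell was thinned to 5000 UMIs. *Kit* was found in 86.6% of McSCs in early anagen (Clopper-Pearson 85.2 to 87.8%) and in 40.3% of cells in the bulb (38.7 to 41.8%). *Ednrb* was found in 88.7% (87.4 to 89.8%) and 98.8% (98.4 to 99.1%). For *Met* the shares were 35.9% and 19.4%, for *Erbb3* 28.6% and 2.97%, for *Igf1r* 17.5% and 1.79%, and for *Fgfr1* 7.07% and 0.696%. With all UMIs, *Kit* was found in 99.2% of early-anagen cells, with a median of 11 UMIs per cell and 3 to 31 from the 5th to the 95th percentile, and in 75.5% of bulb cells, with a median of 1 and a 95th percentile of 4.35. *Ednrb* had a median of 14 UMIs in early anagen (2 to 49) and 17 in the bulb (7 to 33).

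The background was read in cells of the same libraries that carried little *Dct*, defined as a *Dct* share below 1/10 of the melanocyte median. There were 65 such cells in early anagen (median of 30612 UMIs) and 48 in the bulb (11260 UMIs), with keratinocyte markers at 32960 and 7942 CPM. They still held melanocyte markers at 177 and 4657 CPM. Thinned to 5000 UMIs, *Kit* was found in 3.08% of them in early anagen and 6.25% in the bulb, and *Ednrb* in 0 of 65, which allows a share of up to 4.62% by a floor of 3 counts, and in 16.7%. The melanocyte shares of *Kit* and *Ednrb* lay above these in both libraries. *Met* was also above, with 7.69% (2.54 to 17.0%) and 4.17% (0.509 to 14.3%) in low-*Dct* cells.

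The remaining receptors did not stand above the low-*Dct* cells in this way. *Erbb3* was found in 21.5% of low-*Dct* early-anagen cells (12.3 to 33.5%), an interval that held the melanocyte share of 28.6%, and the summed level there was 55.6 CPM against 66.5 CPM in melanocytes. *Igf1r* was found in 15.4% (7.63 to 26.5%) and *Fgfr1* in 7.69% (2.54 to 17.0%), both with intervals that held the melanocyte share. In the bulb, *Erbb3* was found in 2.08% and *Igf1r* in 4.17% of low-*Dct* cells, beside 2.97% and 1.79% of melanocytes. Summed over low-*Dct* cells, *Erbb3* had 55.6 CPM in early anagen and 7.33 CPM in the bulb, and *Igf1r* 28.0 and 7.33 CPM. *Met* had 27.2 and 3.67 CPM there and *Fgfr1* 17.6 and 0 CPM, with at most 4 bulb UMIs each. These receptors were thus lower in the bulb here too, whereas *Kit*, *Ednrb* and the TAM genes were higher. Whether the bulb difference is particular to melanocytes was not tested. *Axl*, *Mertk* and *Tyro3* had shares of 0.862%, 0.215% and 1.76% in early-anagen melanocytes, each below the 3.08% of the low-*Dct* cells. For each gene this 3.08% was 2 of 65 cells, with an interval of 0.375 to 10.7% that held the melanocyte shares of *Axl* and *Tyro3*. Their summed levels were higher in the low-*Dct* cells of both libraries, with *Axl* at 9.20 CPM in early anagen and 23.8 CPM in the bulb, *Mertk* at 2.93 and 9.17 CPM and *Tyro3* at 8.78 and 25.7 CPM. Keratinocytes may express these receptors themselves, so their low-*Dct* share is not that of free RNA alone. The presence of these 3 TAM transcripts in the melanocytes was for this reason not separable from background in these counts.

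**Figure D2:**
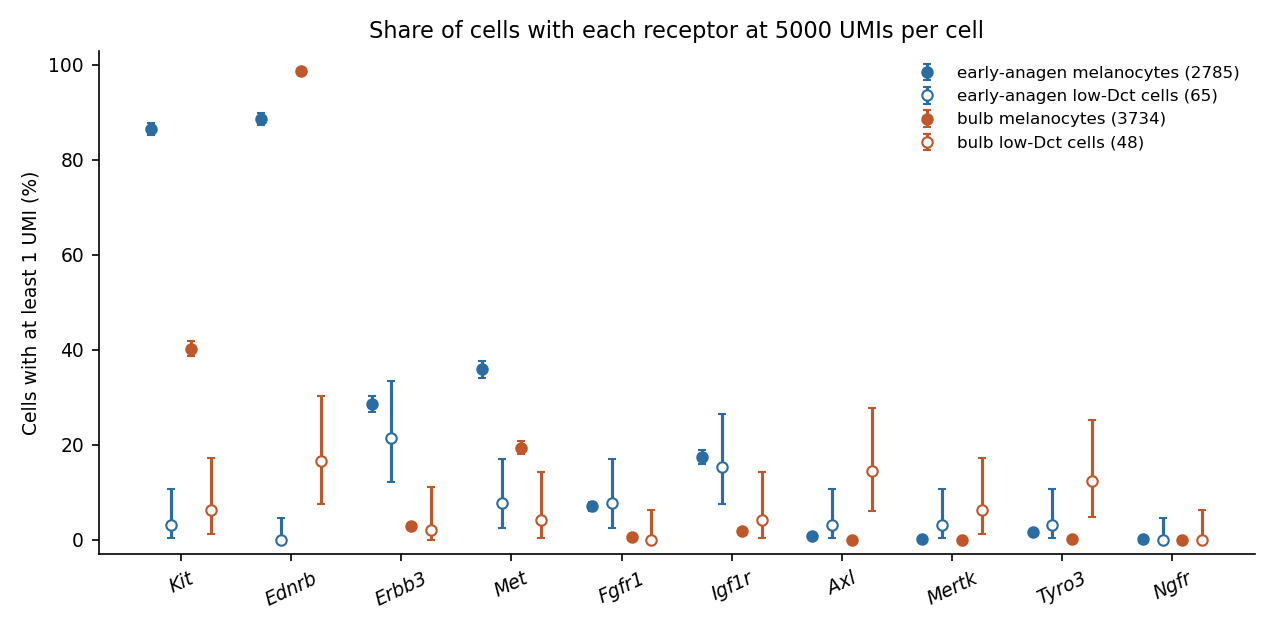
Share of cells (%) with at least 1 UMI of each receptor after thinning to 5000 UMIs per cell, with Clopper-Pearson 95% intervals or, where the share is 0, a bar to the floor of 3 counts, for melanocytes (filled) and low-*Dct* cells (open) of both libraries. *Kit*, *Ednrb* and *Met* stand above the low-*Dct* cells, whereas *Axl* and *Tyro3* in the bulb are found in 14.6% and 12.5% of low-*Dct* cells against 0.0803% and 0.268% of melanocytes.

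Among the selected bulb cells, a few held most of the *Axl* UMIs and every *Mertk* UMI, but not most of those of *Tyro3*. The filter on *Dct* and keratins let through 25 low-*Dct* cells of 3734 in the bulb and 2 of 2785 in early anagen. Of the UMIs in the 3734 selected bulb cells, these 25 held 6 of the 8 of *Axl*, 3 of the 3 of *Mertk* and 10 of the 29 of *Tyro3*. They held 19 of the 6023 *Kit* UMIs and 110 of the 67724 *Ednrb* UMIs. Without them the bulb melanocytes held 2 *Axl*, 0 *Mertk* and 19 *Tyro3* UMIs, whereas *Kit* stayed at 108 CPM and *Ednrb* at 1216 CPM. The 23 early-anagen cells with *Ngfr* had keratinocyte markers at 119 CPM, against 33.4 CPM in cells without it. Their fibroblast markers were at 7.83 against 1.27 CPM, and their melanocyte markers at 15522 against 24716 CPM. The Schwann cell list was nearly level, at 240 against 246 CPM. For the TAM genes the keratinocyte markers did not go 1 way. They were at 46.4 CPM in cells with *Axl* against 33.7 CPM in cells without it. For *Mertk* they were at 22.7 against 34.1 CPM and for *Tyro3* at 30.0 against 34.7 CPM. The part of other cell types in the *Ngfr* and TAM counts was not tested.

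Within early anagen, cells were split by *Oca2*, which encodes a melanosomal ion transport protein and marks the more differentiated McSCs. Each cell was first thinned to 10000 UMIs, after which 288 of 2785 cells (10.3%, 9.23 to 11.5%) held an *Oca2* UMI (*Oca2*+) and 2497 did not (*Oca2*-). The median depth before thinning was 27245 and 24132 UMIs. *Ednrb* and *Met* were higher in *Oca2*+ cells, *Erbb3* and *Fgfr1* were lower, and *Kit* was at nearly the same level in both.

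*Ednrb* had 1273 CPM in *Oca2*+ cells (1232 to 1315) and 633 CPM in *Oca2*- cells (624 to 643), 2.01-fold higher with a log2 ratio of 1.01 (0.95 to 1.06). Its median was 12 UMIs per *Oca2*+ cell, with 3.35 to 26 from the 5th to the 95th percentile, and 5 per *Oca2*- cell, with 1 to 16, so that the ranges of single cells overlapped. *Met* had 185 CPM (169 to 201) and 102 CPM (97.9 to 106), a log2 ratio of 0.86 (0.72 to 0.99). It was found in 76.0% of *Oca2*+ cells and 52.9% of *Oca2*- cells. *Kit* had 472 CPM (447 to 498) and 487 CPM (479 to 496), with a log2 ratio of -0.05 and an interval of -0.13 to 0.03 that spanned 0. The median was 4 *Kit* UMIs per cell in both groups.

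*Erbb3* had 41.7 CPM in *Oca2*+ cells (34.5 to 49.8) and 75.1 CPM in *Oca2*- cells (71.7 to 78.6), a log2 ratio of -0.85 (-1.13 to -0.58). *Fgfr1* had 10.1 and 17.8 CPM, from 29 and 445 UMIs (-0.82, -1.42 to -0.28). *Igf1r* had 29.9 and 43.3 CPM (-0.54, -0.87 to -0.22), which was under 1.5-fold. Of the 6 receptors with a mean of at least 10 CPM, 2 were higher past 1.5-fold, 2 lower and 2 neither. Of 7447 genes with this mean, 5.55% were higher and 5.43% lower past 1.5-fold. The median log2 ratio of all genes was 0.06 and that of the 8 receptors with a UMI in both groups -0.50. *Axl* had 2 UMIs in *Oca2*+ cells and *Tyro3* 8, and *Mertk* and *Ngfr* had none against 7 and 12 UMIs in the *Oca2*- cells, too few for a comparison at this depth. Keratinocyte markers summed to 37.8 CPM in *Oca2*+ cells and 40.4 CPM in *Oca2*- cells.

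**Figure D3:**
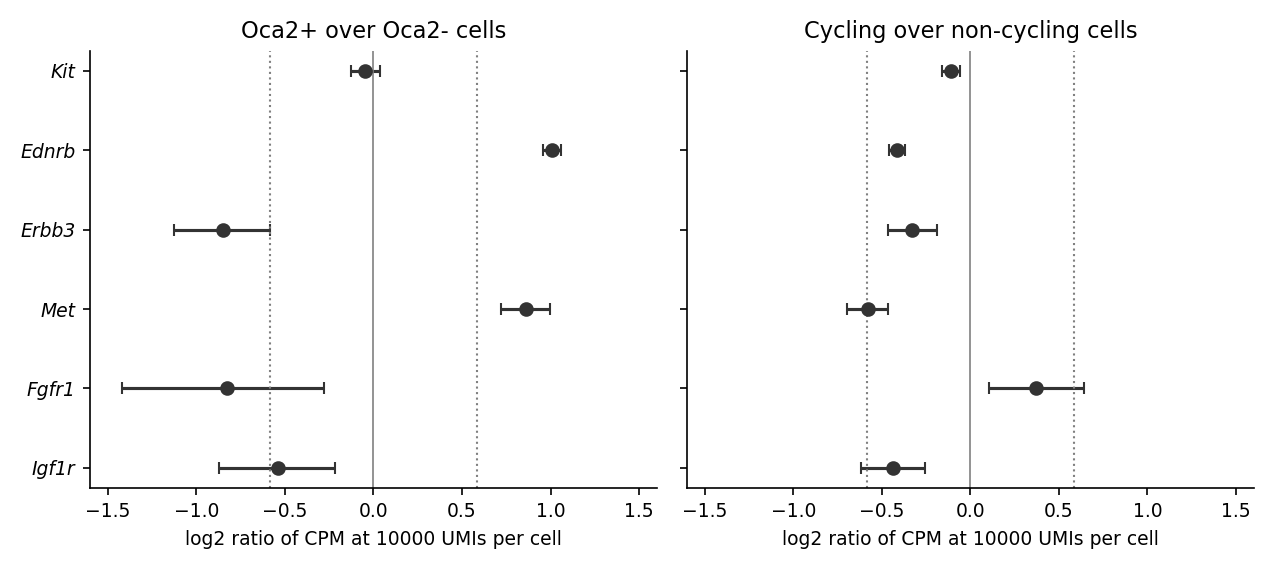
Log2 ratio of CPM for the 6 receptors of at least 10 CPM in early-anagen cells, *Oca2*+ over *Oca2*- at left and cycling over non-cycling at right, with exact 95% intervals and dotted lines at 1.5-fold. *Ednrb* (1.01) and *Met* (0.86) lie past the line at left, and at right no receptor does.

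*Oca2*+ early-anagen cells and bulb melanocytes were then set side by side at 10000 UMIs, which left out 446 bulb cells of lower depth. *Ednrb* had 1273 CPM in *Oca2*+ early-anagen cells and 1224 CPM in the 3288 bulb cells, a log2 ratio of -0.06 (-0.11 to -0.01). *Met* had 185 and 45.5 CPM, a ratio of -2.02 (-2.17 to -1.88), and *Kit* 472 and 108 CPM, a ratio of -2.12 (-2.21 to -2.03). *Erbb3* (-2.65), *Igf1r* (-2.87) and *Fgfr1* (-3.33) were also lower in the bulb. The median of all genes in this pair was -0.49. The level of *Ednrb* thus differed little between *Oca2*+ cells and the bulb, whereas *Met* had the opposite sign in both comparisons, higher with *Oca2* in early anagen and lower in the bulb.

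The same was seen along a pigmentation score, the summed UMIs of *Tyr*, *Tyrp1*, *Pmel*, *Mlana*, *Slc24a5*, *Slc45a2*, *Gpr143*, *Trpm1* and *Rab38* in 10000, which holds neither *Oca2* nor *Dct*. The 2785 early-anagen cells were cut into 5 bins of 557. *Oca2* itself went from 0.180 CPM in the lowest bin to 102 CPM in the highest, so the score is not separate from the *Oca2* split. *Ednrb* went from 346 CPM in the lowest bin through 466, 664 and 800 to 1221 CPM in the highest, a log2 ratio of 1.82 (1.74 to 1.89). *Met* went from 52.1 through 78.3, 105 and 135 to 182 CPM, a ratio of 1.80 with a lower bound of 1.61. Both were higher in each bin than in the one before it.

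*Kit* covered a smaller range along the score, with 429, 480, 463, 506 and 550 CPM (0.36, 0.28 to 0.44). The other receptors were lower in the highest bin than in the lowest, *Erbb3* with 82.0 and 52.6 CPM (-0.64, -0.86 to -0.43), *Fgfr1* with 22.6 and 13.6 CPM (-0.73, -1.16 to -0.31) and *Igf1r* with 51.3 and 35.9 CPM (-0.52, -0.78 to -0.25). For *Erbb3* the first 4 bins lay between 70.2 and 82.0 CPM, with overlapping intervals, and the highest bin lay apart. The bins are ranges of a score and not cell types, and 126 to 239 cells lay within 5% of each cut. *Mki67* and *Top2a* went the other way along the score, from 125 to 38.6 CPM and from 235 to 47.6 CPM, so that the share of cycling cells changed with it.

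In the bulb *Kit*, *Met* and *Ednrb* were nearly level along the score, which ran from a median of 503 UMIs in the lowest bin to 771 in the highest. *Kit* had 113 and 104 CPM at both ends (-0.12, -0.27 to 0.03), *Met* 41.9 and 49.3 CPM (0.23, with an interval from just below 0 to 0.47) and *Ednrb* 1274 and 1194 CPM (-0.09, -0.14 to -0.05). *Ednrb* was thus slightly lower in the most pigmented bulb cells, where in early anagen it was higher with the score. *Erbb3* had 7.14 and 5.48 CPM (-0.38, -1.05 to 0.27) and *Igf1r* 4.26 and 4.41 CPM (0.05, -0.75 to 0.86). *Fgfr1* had 1.67 and 0.609 CPM, from 11 and 4 UMIs (-1.46, -3.56 to 0.30), and *Tyro3* went from 7 UMIs to 0 and *Axl* from 3 to 0. The lowest bulb bin reached down to a score of 0. *Mki67* and *Top2a* went from 10.5 and 24.5 CPM in that bin to 0 in the highest. The part of low-*Dct* and cycling cells in these steps was not tested.

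**Figure D4:**
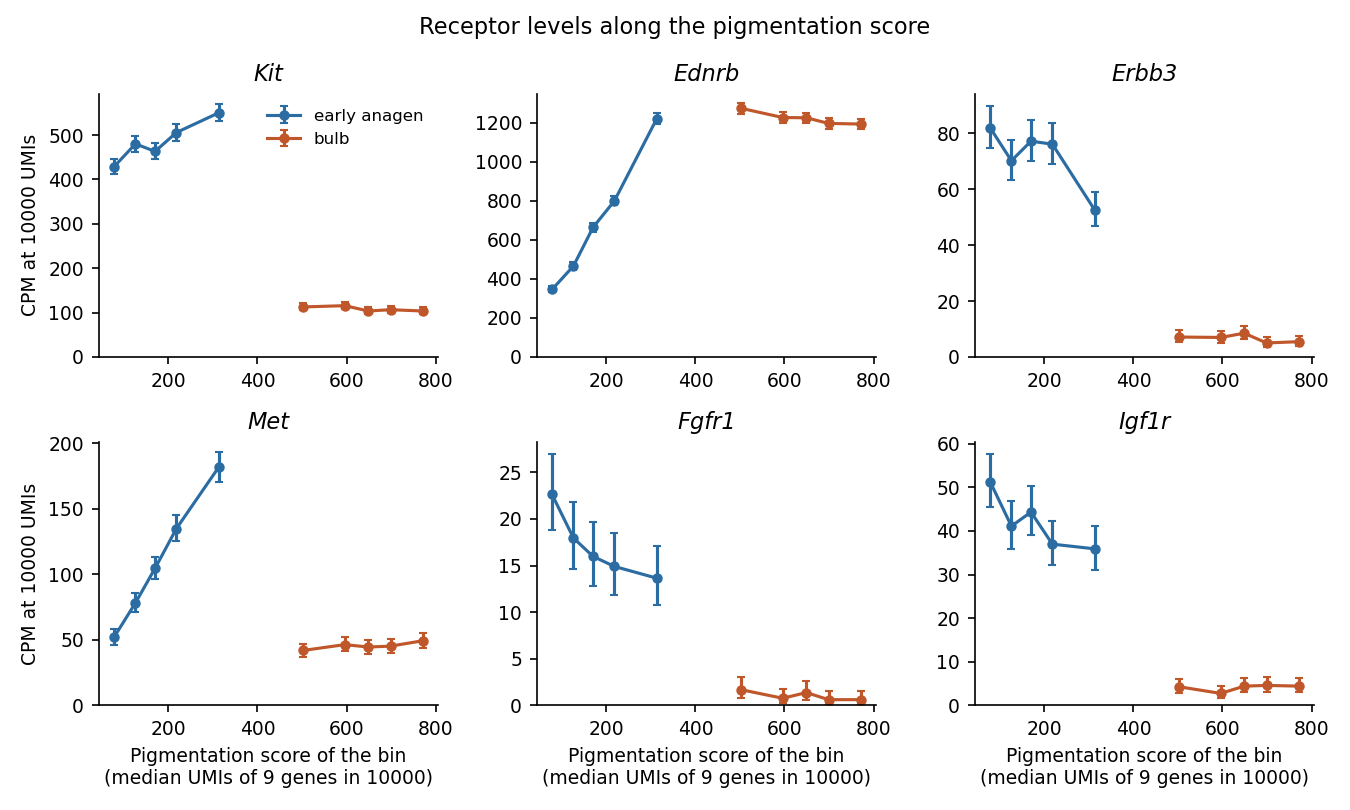
CPM of 6 receptors at 10000 UMIs per cell in 5 bins of cells by pigmentation score, placed at the median score of each bin, for early anagen (557 cells per bin) and the bulb (657 or 658 cells), with exact Poisson 95% intervals. *Ednrb* climbs to 1221 CPM in the highest early-anagen bin and lies between 1194 and 1274 CPM in the bulb, whereas *Met* climbs to 182 CPM and lies between 41.9 and 49.3 CPM in the bulb.

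The promoters of *Kit*, *Ednrb* and *Met* are shown because these receptors had the most UMIs and followed 3 patterns, with *Ednrb* and *Met* alike within early anagen and *Kit* and *Met* alike between the libraries. The bases are the 250 before the RefSeq start of each gene in GRCm38.p6, on the strand of the gene, and capitals mark a CACGTG motif (the E-box that MITF, among other factors, can bind):
Kit, chr5:75574737-75574986, + strand: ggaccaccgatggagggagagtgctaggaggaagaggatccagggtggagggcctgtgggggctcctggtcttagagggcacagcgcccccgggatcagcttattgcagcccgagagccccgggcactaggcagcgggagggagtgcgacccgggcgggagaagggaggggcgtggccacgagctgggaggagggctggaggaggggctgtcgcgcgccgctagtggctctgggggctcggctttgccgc
Ednrb, chr14:103843702-103843951, - strand: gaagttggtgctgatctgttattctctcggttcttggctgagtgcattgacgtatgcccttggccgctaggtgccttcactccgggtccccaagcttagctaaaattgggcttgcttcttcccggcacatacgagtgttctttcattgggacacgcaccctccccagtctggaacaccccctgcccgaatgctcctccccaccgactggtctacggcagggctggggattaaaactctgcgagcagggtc
Met, chr6:17463707-17463956, + strand: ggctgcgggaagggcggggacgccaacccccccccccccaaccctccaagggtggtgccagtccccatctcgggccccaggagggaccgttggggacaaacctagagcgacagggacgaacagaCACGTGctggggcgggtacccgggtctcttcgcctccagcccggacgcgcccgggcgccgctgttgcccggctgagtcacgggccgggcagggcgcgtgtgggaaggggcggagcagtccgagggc
RefSeq promoters of 8 of the 10 receptors were in the table used, and *Erbb3* and *Fgfr1* were not among them. The window searched was the 250 bases before the start and the 50 after it, on both strands, for 7 motifs, none of which lies within another. CACGTG, which reads the same on both strands, was found in *Met*, 126 bases before the start, and in 7.24% of 27025 promoters. The related E-box CATGTG was found in 14.1% of promoters. Of the letters that SOX factors can bind, ACAAAG was found in 18.7% and, as the other form searched, AACAAT in 10.9%. CTTTGA, which LEF and TCF factors can bind, was found in 16.2%, the TATA-box letters TATAAA in 14.2% and the GC-box GGGCGG in 35.9%. *Kit* held GGGCGG once, 98 bases before the start, and *Met* held it 239, 117 and 20 bases before it. *Ednrb* held none of the 7 motifs, in a window (chr14:103843652-103843951) that lies inside the gene span given below. *Igf1r* held ACAAAG on the opposite strand, 9 bases after the start, and CTTTGA 89 bases before it. GGGCGG was found in each of the 8 receptor promoters other than that of *Ednrb*. A match is a description of the letters and not evidence of binding, and regions outside this window were not searched.

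The genes lie apart in the genome. In GENCODE M21 (GRCm38), *Kit* (ENSMUSG00000005672) spans chr5:75574916-75656722, *Ednrb* (ENSMUSG00000022122) chr14:103814625-103844402, *Met* (ENSMUSG00000009376) chr6:17463800-17573980 and *Erbb3* (ENSMUSG00000018166) chr10:128567523-128589652. *Igf1r* (ENSMUSG00000005533) spans chr7:67952827-68233668, *Axl* (ENSMUSG00000002602) chr7:25757273-25788705, *Fgfr1* (ENSMUSG00000031565) chr8:25513654-25575718 and *Ngfr* (ENSMUSG00000000120) chr11:95568818-95587735. *Mertk* (ENSMUSG00000014361) and *Tyro3* (ENSMUSG00000027298) both lie on chromosome 2, at chr2:128698956-128802894 and chr2:119797733-119818104. None of the 10 overlaps another counted gene on its own strand, and *Fgfr1* and *Mertk* each overlap 1 on the opposite strand. The RefSeq starts used for the promoters are not the starts of these spans. The windows of *Ednrb* and *Tyro3* (chr2:119799264-119799563) lie wholly inside the spans, and that of *Igf1r* (chr7:67952007-67952306) wholly outside.

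Early-anagen cells were also split by the proliferation genes *Mki67* and *Top2a*. At 10000 UMIs, 1026 cells (36.8%, 35.0 to 38.7%) held at least 1 UMI of either and were taken as cycling, and 1759 held none. Cycling cells had more RNA, with a median of 34540 UMIs before thinning against 20884. Of the 6 receptors with a mean of at least 10 CPM, 5 were somewhat lower in cycling cells and *Fgfr1* was somewhat higher, all under 1.5-fold.

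*Met* had 84.1 CPM in cycling cells (78.6 to 89.9) and 126 CPM in non-cycling cells (121 to 131), a log2 ratio of -0.58 (-0.69 to -0.47), just under 1.5-fold. *Ednrb* had 578 and 771 CPM (-0.42, -0.46 to -0.37), *Igf1r* 34.3 and 46.4 CPM (-0.44, -0.62 to -0.25) and *Erbb3* 61.7 and 77.4 CPM (-0.33, -0.47 to -0.19). *Kit* had 463 CPM (450 to 476) and 499 CPM (488 to 509), a ratio of -0.11 (-0.16 to -0.06). *Fgfr1* had 19.9 and 15.3 CPM (0.37, 0.10 to 0.64). Of 6 receptors with a mean of at least 10 CPM, 0 passed 1.5-fold in either direction, where 7.48% of 7457 genes were higher and 2.99% lower. The median log2 ratio was -0.25 over the 10 receptors and -0.03 over all genes. *Tyro3* had 4.68 and 3.13 CPM (0.58, -0.01 to 1.17), while *Axl* (16 and 31 UMIs), *Mertk* (1 and 6) and *Ngfr* (6 and 6) had intervals that spanned 0.

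By the number of *Mki67* and *Top2a* UMIs, *Kit* did not follow 1 direction. It had 499 CPM in the 1759 cells with 0, 454 CPM in the 427 cells with 1 to 2, 424 CPM in the 316 cells with 3 to 9, and 521 CPM in the 283 cells with 10 or more (495 to 548). *Ednrb* had 771, 647, 535 and 521 CPM and *Met* 126, 97.0, 82.3 and 66.8 CPM, so the *Met* level was lower in each class than in the one before. Its intervals overlapped between the class of 3 to 9 UMIs and the classes on either side of it, and those of *Ednrb* between the last 2 classes. *Erbb3* had 77.4, 61.8, 63.9 and 59.0 CPM, with the step between the first class and the rest. *Oca2* itself was lower along these classes, from 29.9 to 7.07 CPM.

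**Figure D5:**
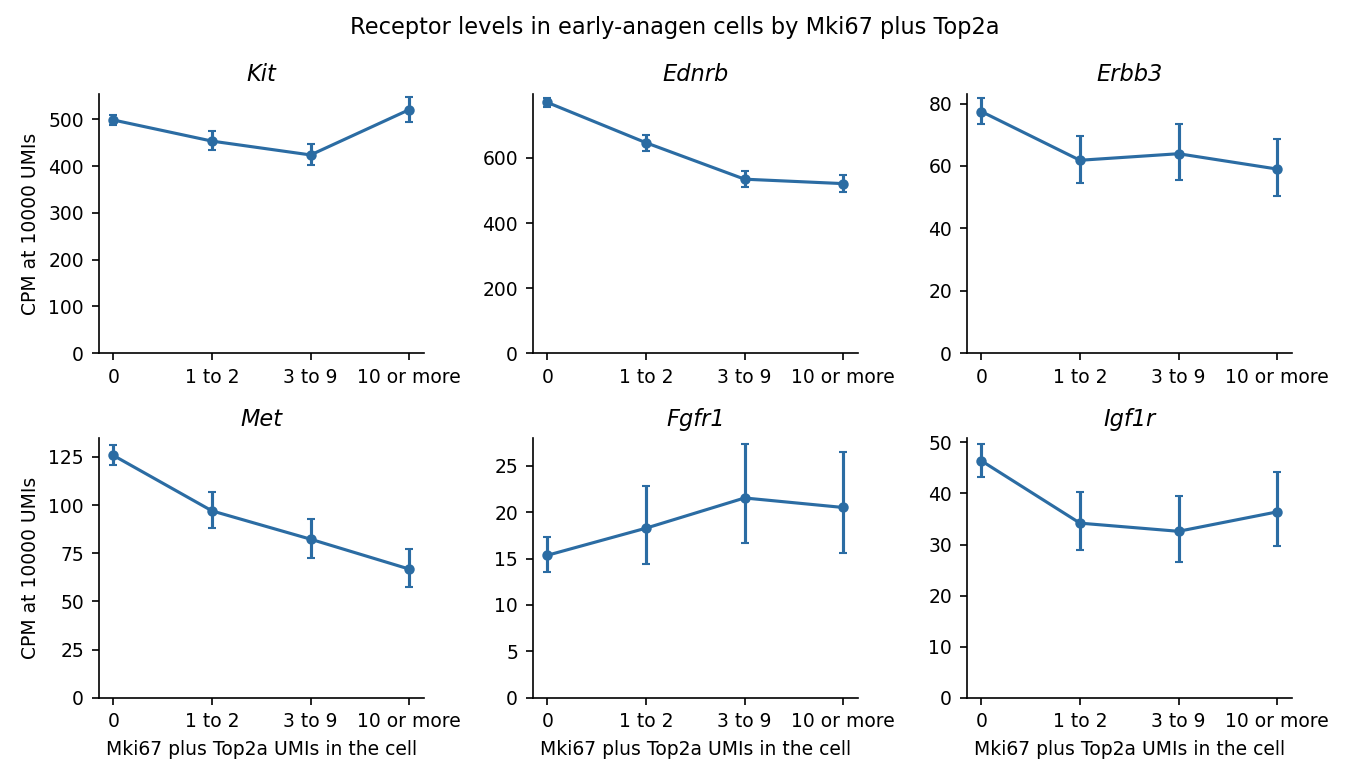
CPM of 6 receptors in early-anagen cells at 10000 UMIs, in classes of cells with 0, 1 to 2, 3 to 9 and 10 or more *Mki67* plus *Top2a* UMIs (1759, 427, 316 and 283 cells), with exact Poisson 95% intervals. *Met* steps down from 126 to 66.8 CPM, whereas *Kit* is lowest in the third class at 424 CPM and at 521 CPM in the last.

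Of the *Oca2*+ cells 69 of 288 were cycling, against 957 of the 2497 *Oca2*- cells, so both splits were crossed. The *Ednrb* level was 991 CPM in *Oca2*+ cycling cells, 1362 CPM in *Oca2*+ non-cycling cells, 548 CPM in *Oca2*- cycling cells and 686 CPM in *Oca2*- non-cycling cells. The log2 ratio of *Oca2*+ over *Oca2*- was 0.86 (0.74 to 0.97) among cycling cells and 0.99 (0.93 to 1.05) among the others. For *Met* it was 0.69 (0.36 to 1.01) and 0.81 (0.66 to 0.96), and the *Erbb3* interval was -1.69 to -0.39 among cycling cells and -1.19 to -0.58 among the others. *Fgfr1* was at -0.21 (-1.18 to 0.63) among cycling cells, no longer past 1.5-fold and from 12 UMIs in the *Oca2*+ group, and at -1.08 (-1.88 to -0.37) among the others. Cycling over non-cycling was likewise on the same side within both *Oca2* groups, -0.46 and -0.33 for *Ednrb* and -0.63 and -0.51 for *Met*. The *Igf1r* ratio by *Oca2* was -0.18 (-0.90 to 0.45) among cycling cells, which rested on 21 UMIs in the *Oca2*+ group, and -0.72 (-1.11 to -0.35) among the others. For *Kit* the ratio by *Oca2* was -0.13 and -0.04, and that by cycling -0.20 and -0.10.

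Co-detection of receptors was read beside the share of each receptor taken singly. At 5000 UMIs the median early-anagen cell held UMIs of 3 of the 10 receptors and the median bulb cell of 2, and 31 early-anagen and 27 bulb cells held none. *Kit* and *Ednrb* were both found in 77.2% of McSCs in early anagen and 40.0% of the bulb cells. Taken singly, their shares were 86.6% and 88.7% in early anagen and 40.3% and 98.8% in the bulb. *Ednrb* and *Met* were both found in 33.4% and 19.2%, where *Met* taken singly was found in 35.9% and 19.4%. Whether 2 receptors met in a cell more often than their single shares give was not tested. Over 2785 early-anagen cells at 10000 UMIs, the log2 values correlated at r = 0.29 for *Ednrb* and *Met* and at 0.19 for *Kit* and *Ednrb*, and over 3288 bulb cells at 0.02 and 0.04. The points are cells of 1 library, share its composition and rest on sparse counts, so these are descriptions. *Axl* and *Tyro3* had r = 0.28 in the bulb, from 4 and 12 UMIs in all, and the low-*Dct* cells hold most of the *Axl* UMIs there.

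Most ligand genes of these receptors had few UMIs in the melanocytes themselves, and whether fewer than genes in general was not tested. Of 20 ligand genes, 16 had a mean under 1 CPM over both libraries, and 6 of them, such as *Edn3*, *Hgf* and *Igf1*, had no UMI in either. Having no UMI was common, since 19777 of all 32285 genes had a UMI in 1 library or both. The share of all genes under 1 CPM was not computed, so the 16 of 20 cannot be read as a trait of ligands. *Gas6* and *Pros1*, the TAM ligands, were the 2 ligand genes with a mean of at least 10 CPM. *Gas6* had 18.8 CPM in early anagen and 23.0 CPM in the bulb (0.29, 0.18 to 0.40), and *Pros1*, which encodes protein S, 21.9 and 1.81 CPM (-3.60, -3.90 to -3.31). In early anagen *Gas6* was higher in cycling cells, with 23.4 against 15.0 CPM (0.65, 0.39 to 0.90), and *Pros1* was lower in *Oca2*+ cells, with 15.6 against 25.3 CPM (-0.70, -1.17 to -0.26).

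Among 19 other receptors of these families, 2 had a mean of at least 10 CPM and both were lower in the bulb past 2-fold, as were 25.8% of all genes with this mean. These were *Igf2r*, a clearance receptor for IGF2, with 88.0 and 24.0 CPM (-1.87), and *Sort1*, a sorting receptor that pairs with p75, with 53.9 and 19.9 CPM (-1.44). *Erbb2*, the partner of *Erbb3*, was named after its values were seen and had 4.52 CPM in early anagen and 1.09 CPM in the bulb. It was below the minimum, and some other genes below it, also named after their values were seen, were higher in the bulb. *Fgfr3* had 15 UMIs in early anagen and 112 in the bulb (3.34, 2.56 to 4.22). *Ntrk2* had 5 and 76 UMIs (4.36, 3.08 to 6.03) and *Ednra* 3 and 11 (2.31, 0.39 to 4.79). Over *Igf2r* and *Sort1*, the 2 of this list that passed the minimum, the median log2 ratio was -1.66. None of the 3 that passed the minimum in the splits (*Insr*, *Igf2r* and *Sort1*) lay past 1.5-fold with *Oca2* or with cycling. Of all genes with this mean, 5.55% were higher and 5.43% lower with *Oca2*, and 7.48% and 2.99% with cycling, so few of any 3 genes would be.

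Of 22 adaptors and signal carriers, 18 passed the minimum, 7 of them lower in the bulb past 2-fold and 0 higher, beside 25.8% lower and 16.4% higher of all genes tested. The largest ratio among the 18 was that of the docking protein *Gab1*, with 68.1 and 4.03 CPM (-4.08, -4.28 to -3.89). *Sos1*, a Ras exchange factor, had 22.5 and 3.49 CPM (-2.69) and *Irs2*, a docking protein that serves IGF1R, 37.1 and 5.80 CPM (-2.68). *Gna11*, a G protein subunit that endothelin receptors use, had 110 and 98.6 CPM (-0.15). The list also holds the subunits *Gnaq* and *Gnai3*, named after their values were seen. *Gnaq* was lower in the bulb past 2-fold, with 77.9 and 34.9 CPM (-1.16, -1.23 to -1.08), and *Gnai3* had 94.3 and 66.6 CPM (-0.50). *Gab1* was also lower in *Oca2*+ cells, with 47.2 against 79.4 CPM (-0.75, -1.01 to -0.50), and in cycling cells, with 57.0 against 87.2 CPM (-0.61, -0.75 to -0.47), the 1 adaptor of 18 past 1.5-fold in each split, where 5.43% and 2.99% of genes were lower.

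Of 21 inhibitors, sheddases and binding proteins, 9 passed the minimum and 2 were lower in the bulb past 2-fold, beside 25.8% of all genes. *Spred1*, an inhibitor of Ras signalling, had 107 CPM in early anagen and 17.2 CPM in the bulb (-2.64, -2.74 to -2.54), and *Adam10*, a protease that sheds surface receptors, 168 and 65.0 CPM (-1.37, -1.43 to -1.32). *Adam17*, a related sheddase, had 19.6 and 10.2 CPM (-0.94). With *Oca2*, 2 of 10 were higher past 1.5-fold, beside 5.55% of genes, *Socs2* with 52.4 against 30.0 CPM (0.81, 0.54 to 1.06) and *Adam10* with 257 against 155 CPM (0.73, 0.61 to 0.84), and *Errfi1* was lower with 24 UMIs in *Oca2*+ cells (-0.59, -1.25 to 0.01), beside 5.43%. *Adam10* thus had the same signs as *Met*, higher with *Oca2* and lower in the bulb. With cycling, 1 of 10 was lower past 1.5-fold, beside 2.99% of genes, *Sh2b3*, an adaptor that restrains KIT, with 8.48 against 12.8 CPM (-0.59, -0.97 to -0.23). Over the genes of each list with a mean of at least 10 CPM, the median of bulb over early anagen was -1.65 for the 2 ligands. It was -1.66 for the 2 other receptors, -0.80 for the 18 adaptors and -0.66 for the 9 regulators. All genes with this mean had a median of -0.11.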

How the data were processed

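The data were 2 droplet single-cell RNA-seq libraries, 1 of early-anagen McSCs and 1 of bulb melanocytes. Per the labels, the authors deposited counts of UMIs, not normalized, for every gene and barcode, made with Cell Ranger 6.0.1 on mm10 (GRCm38) as the file headers state. All values tested were whole numbers. Telogen cells were not analysed here.

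The receptors and companion lists were chosen with earlier results of these data known. Cells were selected as the report states, which follows the limits on UMIs and mitochondrial genes of the study's methods, and no doublet caller was run. UMIs were summed over cells and scaled to CPM with Python 3.11.15, numpy 2.4.6 and scipy 1.17.1. Ratios have exact 95% intervals of 2 Poisson sums and shares have Clopper-Pearson intervals, which cover counting error only. A sum of 0 was given a floor of 3 counts. Cells were thinned without replacement to 10000 UMIs for splits within early anagen and to 5000 for shares. With 1 library per condition no p-value was computed. A gene was counted past 2-fold between libraries or 1.5-fold within early anagen, with a mean of at least 10 CPM. All 10 receptors are named, and of each companion list the 2 genes highest in mean CPM or the 3 with the largest ratio were eligible, some of which are not reported here. The low-*Dct* definition was added after seeing the data, because the planned definition of keratinocyte-like cells left 1 bulb cell.

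Depth was 75718468 UMIs in early-anagen cells and 55883067 in bulb cells. On simulated counts with 200 changed genes, intervals of bulb over early anagen held the true ratio for 94.5% of these genes, with 19777 genes simulated. This share holds for simulated counts and does not test the intervals on the real cells. Under Poisson counting the variance of UMIs per cell equals their mean. In early-anagen cells thinned as for the splits, it was 4.46 times the mean for *Ednrb*, 2.14 for *Kit* and 1.78 for *Met*. For the other receptors it lay between 0.983 (*Axl*) and 1.28 (*Mertk*). Alternatives were other cell limits, thinning, a reduced total, TMM factors (edgeR 4.0.16), the mean of each cell's CPM, and other definitions of the splits.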

Additional observations from a re-analysis of the deposited data

How the results depend on the processing

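Each alternative changed 1 setting, except the stricter choice of cells, which changed the *Dct* minimum and the keratin limit together. No paired analysis was possible because each condition had 1 library, and no replicate could be left out. Of 88 receptor values of bulb over early anagen under the alternatives, none changed sign, and 72 stayed within the interval of the reported value. With TMM factors *Ednrb* was at 1.12, so 1 receptor was higher past 2-fold in place of 0, and *Met*, at -0.90, was no longer lower past 2-fold. With no minimum of CPM, 8 receptors were lower past 2-fold in place of 4, beside 33.3% of genes. *Ngfr*, with no UMI in the bulb, was not among the 8. The share of genes counted a sum of 0 at the floor of 3 counts, and by that rule *Ngfr* would be lower past 2-fold too. For *Oca2*, 58 of 64 values stayed within the interval, and the 1 change of sign was *Kit*, whose interval spanned 0 except with TMM factors (-0.11, -0.19 to -0.03). With all UMIs of each cell, 1 receptor was lower past 1.5-fold with *Oca2* in place of 2, and *Met* was lower past 1.5-fold with cycling, where 0 had been. The number lower with *Oca2* was 3 with TMM factors and with only non-cycling cells, where *Igf1r* was at -0.60 and -0.72. It was also 3 with no minimum of CPM, by *Axl*, beside 8.5% of genes. With at least 3 *Mki67* plus *Top2a* UMIs, *Met* (-0.75) was the 1 receptor lower past 1.5-fold. With no minimum of CPM, 1 was higher and 1 lower past 1.5-fold with cycling, *Ngfr* and *Mertk*, each with 6 UMIs or fewer per group, beside 22.6% and 14.3% of genes. Of 78 values of that split 72 stayed within the interval, and the 3 changes of sign were of *Axl* or *Ngfr*, whose intervals spanned 0. Receptors in at least 5% of cells numbered 3 at 5000 UMIs and 5 with all UMIs in the bulb, and 6 and 7 in early anagen. The share of all genes found in at least 5% of cells was not computed. These counts are therefore no result about receptors as a group. Without the low-*Dct* cells, an alternative added after seeing the data, *Axl* was at -5.21 and *Tyro3* at -3.51 in the bulb. The cells left out held 6 of the 8 *Axl* UMIs and 10 of the 29 *Tyro3* UMIs of the bulb cells. The cause of the other shifts was not tested. Depth limits *Axl*, *Mertk*, *Tyro3* and *Ngfr* most.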

Other observations

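Barcodes outside the cell selection carried the same receptors. Early anagen had 653 barcodes with *Dct* and at least 3 *Krt10* and *Krt14* UMIs, in which *Kit* had 273 CPM, *Ednrb* 410 CPM, *Met* 55.8 CPM and *Erbb3* 54.4 CPM, and *Fgfr1* had 24.7 CPM against 16.3 CPM in the selected cells. The 3266 early-anagen barcodes at or under 10000 UMIs had *Kit* at 393 CPM and *Ednrb* at 635 CPM. In the 274 early-anagen barcodes at or over the mitochondrial limit, *Kit* had 585 CPM, *Ednrb* 858 CPM and *Met* 158 CPM. In the 110 such bulb barcodes, *Kit* had 208 CPM, *Ednrb* 1559 CPM and *Met* 86.4 CPM, and *Ngfr* had 1 UMI, whereas the 3734 selected bulb cells held none.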
